A study of Danio rerio with 12 samples.

Results

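The heat shock genes described here are 10 zebrafish genes, chosen by name from the 34028 genes of a liver RNA count table: hsp70l, hsp90aa1.1, hsp90aa1.2, hsp90ab1, bag3, hspb1, hspd1, hspe1, serpinh1b and hsf1. The fish were 3 months old and, per the series title, carried a krasV12 transgene, an activated form of the RAS oncogene, in all 4 groups. The labels give neither the promoter that drives the transgene nor the sex of the fish. Each group held 3 libraries: DMSO alone as the solvent control, TDCIPP, DOX, and finally TDCIPP with DOX. The chlorinated flame retardant TDCIPP is named in the title as tris(1,3-dichloro-2-propyl)phosphate, while DOX is nowhere written out in the labels. The question named in the series title is whether TDCIPP promotes liver tumours through inflammatory responses, and the heat shock genes are described across that design.

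Heat shock genes encode chaperones, proteins that fold other proteins or keep damaged ones from clumping. The factor HSF1 binds their promoters when unfolded protein accumulates and raises the transcription of the inducible members, while sister genes such as hsp90ab1 are transcribed at high level in unstressed cells. HSP70 and HSP90 act in the cytosol with cochaperones, the chaperonin of HSPD1 and HSPE1 acts in mitochondria, and SERPINH1 acts on collagen in the endoplasmic reticulum. The liver, which makes and exports much of the protein of the blood, depends on these systems.

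The 12 libraries held 28621536 to 40877342 reads assigned to genes. Levels are given below as CPM, read counts after TMM scaling to libraries of equal size, and differences between groups are log2 fold changes with their standard error (SE) from edgeR's quasi-likelihood model, with p-values adjusted by Benjamini-Hochberg over the 19160 genes tested. A gene is called where that adjusted p is under 0.05. Of the 10 heat shock genes, 9 passed the low count filter, and hsp90aa1.1 did not. Whether libraries of 1 group derive from different fish is not stated, and the p-values cover the variation among libraries, which may be technical. In whole liver tissue, fewer cells of a type and less RNA per cell cannot be told apart. All 12 hepatocyte markers had reads in every group, and their summed level was 65000 to 126000 CPM. The lowest sum was that of DOX replicate 3, and every other library had 88800 CPM or more. DOX replicate 3 stood apart in oocyte transcripts, whose 14 markers summed to 1550 CPM there and to between 9.85 and 159 CPM in the other 11 libraries. Some results on DOX, but not all, are therefore also given without DOX replicate 3. Some are also given without 4 libraries: DMSO 3, TDCIPP 1, DOX 3 and TDCIPP with DOX 3, each number a replicate. DOX 3 was left out for its oocyte transcripts. The others had the highest sums of the 9 intestine epithelium markers: 701 CPM in DMSO 3, 658 CPM in TDCIPP 1 and 979 CPM in TDCIPP with DOX 3. In DMSO and TDCIPP most of such a sum was 1 gene, apoa4b.1, with means of 544 and 522 CPM. The median of the 9 markers was 17.2 CPM in DMSO 3, 13.9 in TDCIPP 1 and 106 in TDCIPP with DOX 3. It was between 0.219 and 5.69 CPM in the other libraries. No cutoff was set for this choice. Every library held reads of oocyte and intestine markers, so those kept were not free of such transcripts. Comparisons that share a group share its libraries: DMSO enters 3 of the pairwise comparisons, as does TDCIPP with DOX, and the interaction described below uses all 4 groups.

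Per length of transcript, the 10 genes covered a very wide range of levels. In DMSO the authors' FPKM, a level per length of transcript and per sequenced fragments, was 1480 ± 118 (SD, n = 3) for hsp90ab1, the constitutive cytosolic HSP90. The genes of the mitochondrial chaperonin followed, hspe1 with 68.1 FPKM and hspd1 with 33.5. The next 3 were bag3 with 4.09 FPKM, hspb1 with 3.24 and hsf1 with 1.97, and the level of bag3 varied by 1.81 (SD) between libraries, more than its distance to hspb1. The inducible and collagen genes stood at the bottom: hsp90aa1.2 at 0.445 FPKM, serpinh1b at 0.19, hsp70l at 0.115 and hsp90aa1.1 at 0.00672. By means, hsp90aa1.2 stood higher in the order in TDCIPP with DOX, at 12.6 ± 6.03 FPKM beside bag3 at 12.8 ± 1.21 and above hspb1 at 4.67 and hsf1 at 2.87.

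**Figure D1:**
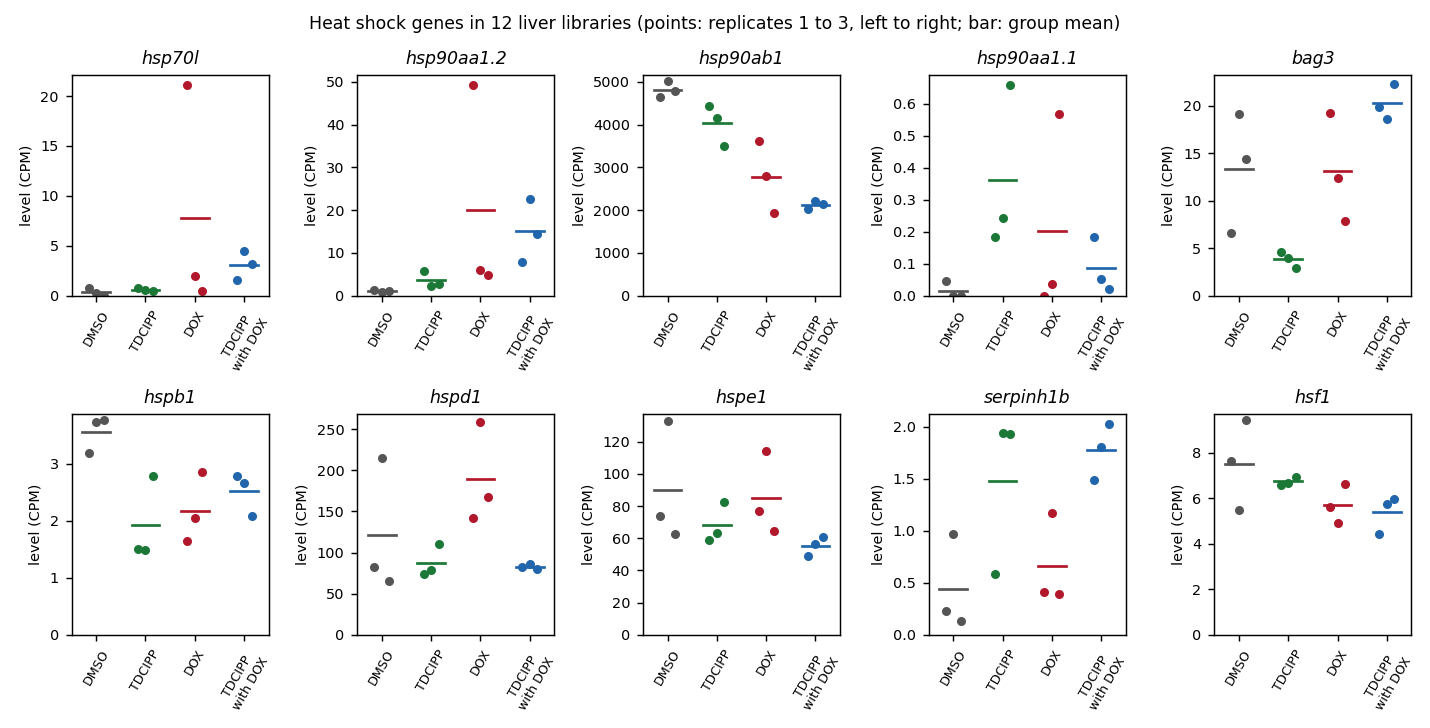
Level (CPM, linear axis from 0, a different range in each panel) of the 10 heat shock genes in each library; points are replicates 1 to 3 from left to right and bars are group means. DOX replicate 1 stands far above the other libraries for hsp70l (21.1 CPM) and hsp90aa1.2 (49.3 CPM), and hsp90ab1 lies between 4650 and 5020 CPM in DMSO but between 2020 and 2220 CPM in TDCIPP with DOX.

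hsp70l encodes an HSP70 that is almost silent without stress and strongly inducible by heat in zebrafish. It measured 0.771, 0.291 and 0 CPM in the DMSO libraries and 0.766, 0.555 and 0.512 CPM in TDCIPP. In DOX it measured 21.1, 1.93 and 0.416 CPM, and in TDCIPP with DOX 1.55, 4.51 and 3.13 CPM. DOX replicate 1 was thus the highest library and DOX replicate 3 lay within the range of DMSO, while all 3 libraries of TDCIPP with DOX lay above every library of DMSO and TDCIPP. The difference of DOX from DMSO was 4.45 ± 1.38 on the log2 scale, with an edgeR adjusted p of 0.0766, and so was not called. Without DOX replicate 1 it was 1.71 (adjusted p = 0.327), without DOX replicate 3 it was 5.02 and called (adjusted p = 0.0302), and the range over all leave-one-out fits was 1.71 to 5.74. TDCIPP with DOX differed from DMSO by 3.10 ± 1.32, with an unadjusted p of 0.0376 and an adjusted p of 0.155, whereas the authors' deposited table gives an adjusted p of 0.013876 for hsp70l in that comparison. With library totals in place of TMM, edgeR called hsp70l in DOX against DMSO (4.87, adjusted p = 0.0281), beside 5033 of all genes. It then also called hsp70l in TDCIPP with DOX against DMSO (4.03, adjusted p = 0.035), beside 7271 of all genes.

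hsp90aa1.2, the next gene on chromosome 20 to hsp90aa1.1, encodes a cytosolic HSP90 of the alpha type, the class whose transcription is inducible by stress. Its level was 1.27, 0.921 and 0.986 CPM in DMSO, and 5.82, 2.22 and 2.63 CPM in TDCIPP. In DOX it was 49.3, 6.06 and 4.82 CPM, and in TDCIPP with DOX 7.81, 22.7 and 14.5 CPM. No library of the other groups reached down into the DMSO range. In DOX against DMSO hsp90aa1.2 rose by 4.24 ± 0.90 on the log2 scale, or 18.9-fold, with an adjusted p of 0.0243. The authors' deposited table gives hsp90aa1.2 an adjusted p of 1 there, as it does hsp70l. It was the only member called of the 9 tested there, where 6.86% of all genes tested were called. An unadjusted p under 0.05 was reached by 3 members (hsp90aa1.2, hsp70l and hsp90ab1), beside 26.6% of all genes, and DESeq2 called these 3, beside 16.3%. Without DOX replicate 1 the rise was 2.32 and was still called (adjusted p = 0.0321), and without those 4 libraries it was 4.67 (adjusted p = 0.0466). The call was lost when DMSO replicate 1, 2 or 3 was left out (adjusted p = 0.0772, 0.078 and 0.094), and in a model of these 2 groups alone (adjusted p = 0.09). It also rose in TDCIPP with DOX against DMSO, by 3.82 ± 0.88, or 14.1-fold, with an adjusted p of 0.0185, and that call was lost without DMSO replicate 1, 2 or 3 or TDCIPP with DOX replicate 2 (adjusted p = 0.0593, 0.0807, 0.0651 and 0.0508). For this second comparison the authors' deposited table gives an adjusted p of 0.0014456. TDCIPP alone differed from DMSO by 1.74 ± 0.83 with no overlap between libraries, but an adjusted p of 0.519.

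The genes whose levels across the 12 libraries were most like those of hsp70l were 5 in number by the Pearson correlation of log2 CPM, given here as a description of libraries that share their scaling and treatment groups. They were hsp70.2 (r = 0.954), hsp70.3 (r = 0.923), lepr (r = 0.914), hsp90aa1.2 (r = 0.897) and arhgap12a (r = 0.889). lepr encodes the leptin receptor. With DOX replicate 1 left out, r over the remaining 11 libraries was 0.922, 0.868, 0.93, 0.838 and 0.812 in the same order, and 2 of the 5 nearest genes were shared with the ranking over all 12.

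hsp70.1, hsp70.2 and hsp70.3 lie together on chromosome 3, between positions 26112780 and 26127091 of the deposited table, whose genome build is not given in the sources used here. They are close copies of each other and of hsp70l on chromosome 8, so reads may be split among them and the level of any single copy is uncertain. In DMSO they had 0 reads in replicate 3, and hsp70.1 and hsp70.3 also in replicate 2. In DOX hsp70.3 measured 100 CPM in replicate 1, 5.80 CPM in replicate 2 and 1.36 CPM in replicate 3, and in TDCIPP with DOX 1.41, 5.33 and 2.44 CPM. hsp70.2 measured 45.7, 2.34 and 0.46 CPM in DOX, and 1.33, 6.04 and 1.59 CPM in TDCIPP with DOX. The same library, DOX replicate 1, was therefore the highest for hsp70l, hsp70.2, hsp70.3 and hsp90aa1.2. All 3 copies rose in DOX against DMSO, by 5.85 ± 1.57 for hsp70.1 (adjusted p = 0.0477), 6.83 ± 1.76 for hsp70.2 (adjusted p = 0.0431) and 7.99 ± 1.78 for hsp70.3 (adjusted p = 0.0283). They were the only genes called of 17 tested in the list of the HSP70 family and its regulators, beside 6.86% of all genes. The median of the 17 was 0.33, beside 0.12 for all genes. hsp70.2 passed the low count filter only through the groups with DOX, so that count depends in part on the same rise. Without DOX replicate 1 none of the 3 was called: hsp70.1 was 3.37 (adjusted p = 0.13), hsp70.2 3.30 (adjusted p = 0.124) and hsp70.3 4.66 (adjusted p = 0.0582). Without those 4 libraries hsp70.1 and hsp70.2 were not called (adjusted p = 0.112 and 0.0608), and hsp70.3 was (adjusted p = 0.0443). Over all leave-one-out fits the values ran from 3.37 to 10.1 for hsp70.1, 3.3 to 9.24 for hsp70.2 and 4.66 to 13.37 for hsp70.3, the highest being those without DMSO replicate 1, which leave at most 1 read of a copy in DMSO. Their adjusted p lay between 0.0388 and 0.155, 0.02 and 0.143, and 0.0132 and 0.106. The call of hsp70.1 and that of hsp70.2 each held only without DOX replicate 2 or DOX replicate 3, while that of hsp70.3 was lost without DMSO replicate 1, 2 or 3 or DOX replicate 1. The constitutive hspa8, shown beside them for contrast and chosen after its values were seen, measured 1190 CPM on average in DMSO and 1370 CPM in DOX, a log2 difference of 0.20 ± 0.38 (adjusted p = 0.768).

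**Figure D2:**
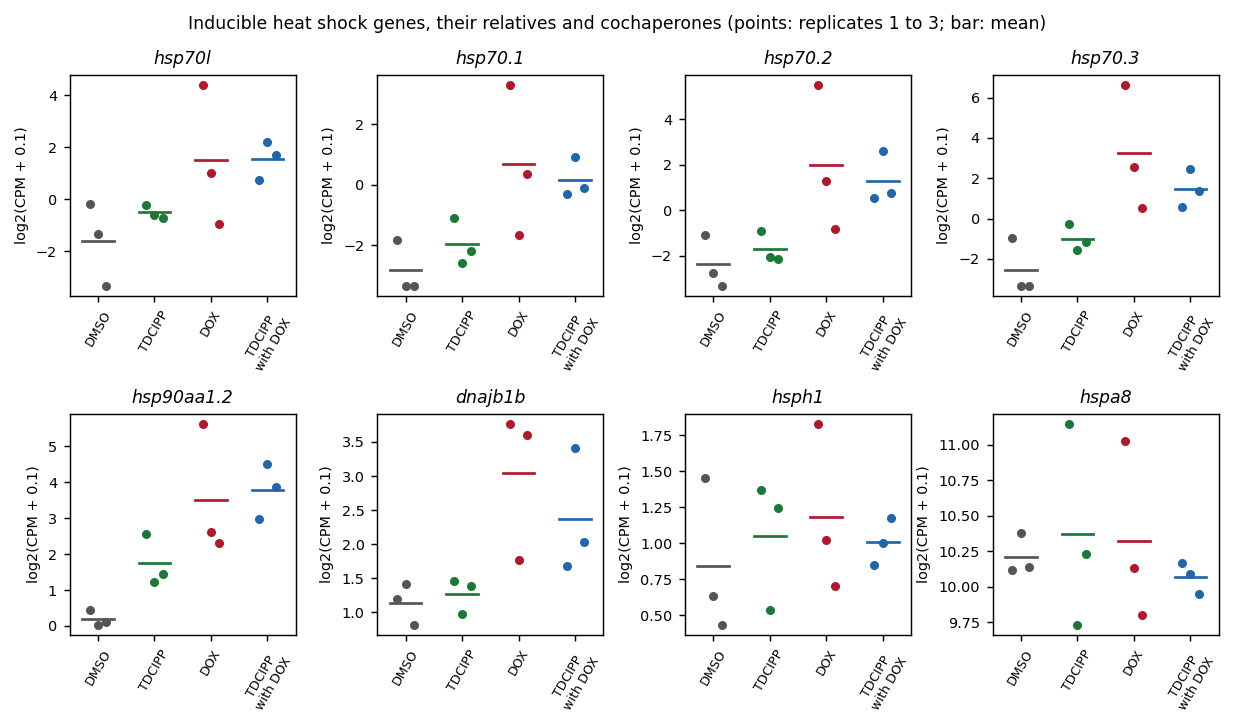
Level as log2(CPM + 0.1) of hsp70l, hsp90aa1.2 and related chaperone genes in each library; points are replicates 1 to 3 and bars are means, and the vertical range differs between panels. In hsp70l, hsp70.1, hsp70.2, hsp70.3 and hsp90aa1.2 the first DOX library is the highest of the 12; hsph1 averaged 1.78 CPM in DMSO and 2.31 CPM in DOX, and hspa8 1190 and 1370 CPM.

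hsp90ab1 encodes the constitutive cytosolic HSP90, and it was the most abundant of the 10 genes in every library. Its level was 4650, 5020 and 4790 CPM in DMSO and 4430, 4150 and 3510 CPM in TDCIPP. In DOX it was 3610, 2790 and 1930 CPM, and in TDCIPP with DOX 2020, 2220 and 2150 CPM. The libraries of each treated group lay below all DMSO libraries, and those of TDCIPP with DOX lay below DOX replicates 1 and 2 but above DOX replicate 3. This order holds for TMM-scaled levels. In the authors' FPKM, DOX replicate 2 was the lowest library at 1160, and DOX replicate 1 at 1560 lay above DMSO replicate 3 at 1350. Against DMSO, hsp90ab1 fell in TDCIPP with DOX by 1.18 ± 0.24 on the log2 scale, 2.26-fold, with an adjusted p of 0.0111. With hsp90aa1.2 it made up the 2 members called of 9, beside 11.7% of all genes tested. DESeq2 called these and hsp70l, beside 18.9% of all genes, and hsp70l, serpinh1b and hspe1 brought the members with an unadjusted p under 0.05 to 5, beside 27.1%. That fall is relative to the scaling used. With library totals in place of TMM the median over all genes tested moved from 0.1 to 1.11, and hsp90ab1 stood at -0.16 (adjusted p = 0.374), below that median but near 0 itself. The authors' FPKM, which carries no TMM scaling, likewise changed little, from 1480 ± 118 in DMSO to 1330 ± 32.7 in TDCIPP with DOX. Without TDCIPP with DOX replicate 1 the fall missed the threshold (adjusted p = 0.0568, within a leave-one-out range of 0.00168 to 0.0568). In DOX alone hsp90ab1 differed from DMSO by -0.80 ± 0.24 (adjusted p = 0.0716). That value was -0.58 without DOX replicate 3 (adjusted p = 0.101) and -0.58 without those 4 libraries (adjusted p = 0.211). For hsp90ab1 the authors' deposited table gives an adjusted p of 0.026076 in TDCIPP with DOX against DMSO and 0.80674 in DOX against DMSO.

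Within cytosolic HSP90, hsp90ab1 made up 98.18% to 99.98% of the summed FPKM of its 3 genes in all 12 libraries. The share of hsp90aa1.2 was 0.0249% to 0.037% in DMSO, 0.0724% to 0.178% in TDCIPP, 0.293% to 1.82% in DOX and 0.521% to 1.36% in TDCIPP with DOX. The DMSO libraries thus had the lowest shares and those of the 2 groups with DOX the highest, and no TDCIPP library reached either of them.

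hsp90aa1.1, which in zebrafish is needed for myosin folding in skeletal muscle, was close to undetected. It lies on the minus strand of chromosome 20 with hsp90aa1.2, with 690 bases between both genes in the deposited table, and as close copies they may share reads. Group sums were 1 read for DMSO, 40 for TDCIPP, 27 for DOX and 13 for TDCIPP with DOX. As unscaled CPM over all reads of the group this was 0.0107 for DMSO, with an exact Poisson 95% interval of 0.000271 to 0.0596, against 0.354 in TDCIPP (0.253 to 0.482), 0.288 in DOX (0.19 to 0.419) and 0.121 in TDCIPP with DOX (0.0644 to 0.207). Of the 27 reads in DOX, 26 were in replicate 3, the library with the most oocyte transcripts. The reads in TDCIPP were 6, 7 and 27, mostly in replicate 3 as well, and those in TDCIPP with DOX were 9, 3 and 1. These intervals cover counting error only. The 15 skeletal muscle markers summed to between 0.363 and 3.09 CPM in the 12 libraries, and 5, 5, 5 and 2 of them had no read in DMSO, TDCIPP, DOX and TDCIPP with DOX.

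bag3 encodes a cochaperone that links HSP70 to the clearance of aggregated proteins. Its level was 6.58, 19.1 and 14.4 CPM in DMSO and 4.60, 3.95 and 2.95 CPM in TDCIPP, where every library lay below every DMSO library. In DOX it was 19.2, 12.4 and 7.84 CPM, overlapping with DMSO, and in TDCIPP with DOX 19.8, 18.6 and 22.3 CPM. TDCIPP with DOX differed from DMSO in bag3 by 0.60 ± 0.39 (edgeR adjusted p = 0.364), which depended on the scaling. With library totals in edgeR it was 1.65 and called (adjusted p = 0.0046), beside an all-gene median of 1.11. In the authors' FPKM, bag3 averaged 4.09 ± 1.81 in DMSO and 12.8 ± 1.21 in TDCIPP with DOX. Against TDCIPP, bag3 rose in TDCIPP with DOX by 2.40 ± 0.41 on the log2 scale, 5.28-fold, with an adjusted p of 0.0126. It was the only member called of 9 in that comparison, where 4.18% of all genes tested were called. DESeq2 added hsp90ab1, beside 9.07% of all genes, and hsp90ab1 and hsp90aa1.2 were the other 2 members with an unadjusted p under 0.05, beside 17.9%. The call was lost without TDCIPP replicate 2, TDCIPP replicate 3 or TDCIPP with DOX replicate 3 (adjusted p = 0.0635, 0.0604 and 0.0511). In TDCIPP against DMSO the difference was -1.80 ± 0.40 with an unadjusted p of 0.000918 and an adjusted p of 0.181, and the authors' deposited table gives an adjusted p of 0.46405. No member was called in that comparison by edgeR, beside 0.0418% of all genes; 3 members (bag3, hspb1 and serpinh1b) had an unadjusted p under 0.05, beside 10%, and DESeq2 called bag3 alone, beside 2.27% of all genes. The effect of TDCIPP on bag3 in the presence of DOX less its effect without DOX was 2.43 ± 0.56 (unadjusted p = 0.00113, adjusted p = 0.23), and edgeR called no member for that interaction, beside 0.0261% of all genes. There bag3 was the only member with an unadjusted p under 0.05, beside 12.8% of all genes, and the only member that DESeq2 called, beside 1.61% of all genes.

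hspb1 encodes a small heat shock protein that holds unfolded proteins in a soluble state. It measured 3.18, 3.73 and 3.76 CPM in DMSO and 1.5, 1.49 and 2.78 CPM in TDCIPP. In DOX it measured 1.64, 2.04 and 2.85 CPM, and in TDCIPP with DOX 2.79, 2.67 and 2.09 CPM. Every treated library lay below every DMSO library, but no difference was called: TDCIPP against DMSO was -0.88 ± 0.35 (adjusted p = 0.43), DOX against DMSO -0.71 ± 0.35 (adjusted p = 0.223), and TDCIPP with DOX against DMSO -0.50 ± 0.35 (adjusted p = 0.403). With library totals the differences of both groups with DOX from DMSO turned positive, to 0.08 and 0.53.

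**Figure D3:**
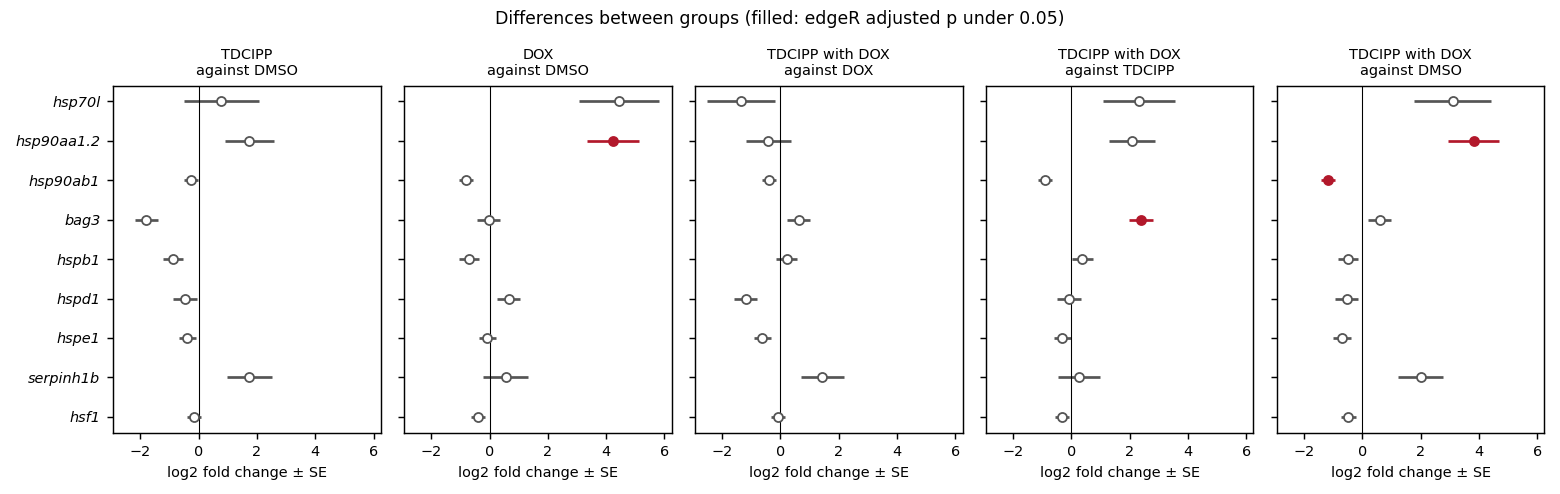
Log2 fold change (horizontal axis) with its SE (bars) of the 9 heat shock genes tested, in 5 comparisons; filled red points have an edgeR adjusted p under 0.05. The filled points are hsp90aa1.2 in DOX against DMSO (4.24), bag3 in TDCIPP with DOX against TDCIPP (2.40), and hsp90aa1.2 (3.82) and hsp90ab1 (-1.18) in TDCIPP with DOX against DMSO.

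hspd1 and hspe1 encode the mitochondrial chaperonin HSP60 and its lid HSP10. They lie head to head on chromosome 9, hspd1 on the minus strand and hspe1 on the plus strand, with 233 bases between them in the deposited table. hspd1 measured 82.1, 215 and 66.0 CPM in DMSO and 74.4, 78.6 and 110 CPM in TDCIPP. In DOX it measured 142, 259 and 167 CPM, and in TDCIPP with DOX 82.7, 86.1 and 80.2 CPM. All DOX libraries lay above all libraries of TDCIPP with DOX, and the second DMSO library alone of its group lay in the range of DOX. hspe1 measured 73.6, 133 and 62.5 CPM in DMSO, 59, 63.4 and 82.4 CPM in TDCIPP, 76.6, 114 and 64.6 CPM in DOX, and 48.9, 56.2 and 60.6 CPM in TDCIPP with DOX. The second library was the highest of its group for both genes in DMSO and in DOX.

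TDCIPP with DOX differed from DOX in hspd1 by -1.19 ± 0.40, with an unadjusted p of 0.0129 and an adjusted p of 0.12, and hspe1 by -0.62 ± 0.30 (adjusted p = 0.227). edgeR called no member in this comparison, beside 2.1% of all genes; hspd1 was the only member with an unadjusted p under 0.05, beside 24.4%, and the only member called by DESeq2, beside 13.1% of all genes. The adjusted p of hspd1 over the leave-one-out fits was 0.0448 to 0.307, and it was called without DMSO replicate 2. The authors' deposited table gives hspd1 an adjusted p of 0.77024 there. In DOX against DMSO hspd1 differed by 0.65 ± 0.40 (adjusted p = 0.315) and hspe1 by -0.08. For hspd1 this value was 1.35 and called without DMSO replicate 2 (adjusted p = 0.0491), and 0.35 without DMSO replicate 3 or DOX replicate 2 (adjusted p = 0.641 and 0.638). Library totals gave hspd1 1.33 (adjusted p = 0.0404), against an all-gene median of 0.83.

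The ratio of the FPKM of hspd1 to that of hspe1, which cancels the scaling of a library, separated DOX from the rest. Its mean was 0.461 ± 0.111 (SD, n = 3) for DMSO, 0.466 ± 0.0174 for TDCIPP and 0.554 ± 0.0677 for TDCIPP with DOX, against 0.816 ± 0.134 for DOX. The DOX libraries measured 0.676, 0.83 and 0.943, and no library of another group exceeded 0.619. This ratio was chosen with these data in view and was not tested.

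**Figure D4:**
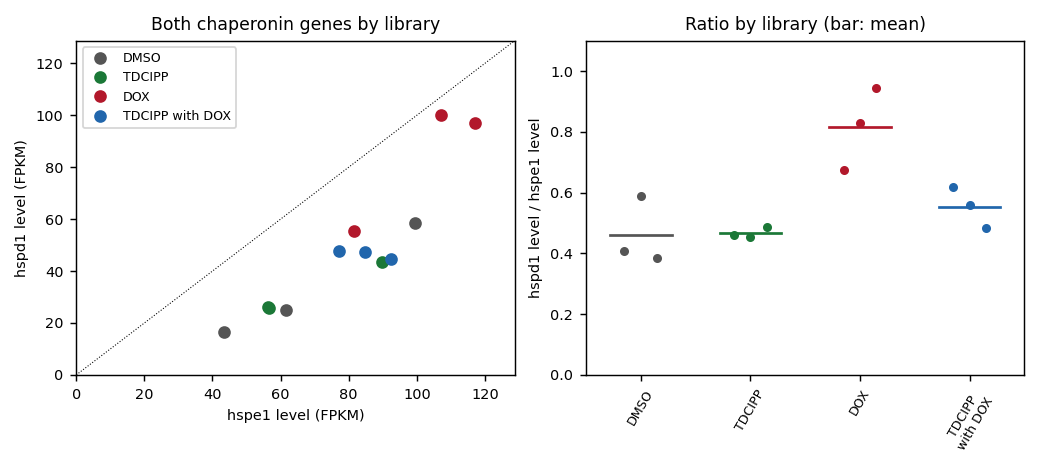
Left, FPKM of hspd1 against FPKM of hspe1 in each library, with a dotted line where both are equal; right, the ratio of hspd1 to hspe1 by library, with bars at the group means. The 3 DOX libraries have ratios of 0.676 to 0.943, above the other 9 libraries, which reach 0.619 at most.

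serpinh1b encodes HSP47, the chaperone that collagen chains need for folding in the endoplasmic reticulum. It measured 0.227, 0.970 and 0.134 CPM in DMSO and 0.582, 1.94 and 1.93 CPM in TDCIPP. In DOX it measured 0.409, 1.17 and 0.394 CPM, and in TDCIPP with DOX 1.49, 1.81 and 2.03 CPM. The libraries of TDCIPP with DOX lay above all those of DMSO and of DOX, while TDCIPP overlapped with both. None of its differences was called: TDCIPP against DMSO was 1.74 ± 0.78 (adjusted p = 0.491), TDCIPP with DOX against DMSO 2.0 ± 0.78 (adjusted p = 0.123), and TDCIPP with DOX against DOX 1.44 ± 0.75 (adjusted p = 0.258). Without DMSO replicate 2, its highest DMSO library, TDCIPP differed from DMSO by 3.02 (adjusted p = 0.53) and TDCIPP with DOX from DMSO by 3.28, which was called (adjusted p = 0.0453; 0.0453 to 0.299 over the leave-one-out fits). Library totals also called the latter (3.01, adjusted p = 0.0134). serpinh1b overlaps gdpd5b on the other strand, which had 39 to 901 reads per library, so its low level is uncertain. The 12 fibroblast and stellate cell markers summed to 95.4 to 197 CPM in DMSO, 39.4 to 104 CPM in TDCIPP, 26.2 to 32.7 CPM in DOX and 75.1 to 103 CPM in TDCIPP with DOX, none of them at 0 in a group. Much of the DMSO sum was col5a1, which averaged 77.7 CPM there, 19.7 in TDCIPP, 7.99 in DOX and 7.91 in TDCIPP with DOX. Over the 11 markers tested, the median log2 fold change against DMSO was -0.28 in TDCIPP. It was -1.93 in DOX and 0.22 in TDCIPP with DOX. The part of these markers in the levels of serpinh1b was not tested.

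hsf1 encodes the factor that drives the heat shock response, and its own level moved little. It measured 7.62, 5.48 and 9.45 CPM in DMSO, 6.59, 6.66 and 6.95 CPM in TDCIPP, 5.62, 4.89 and 6.64 CPM in DOX, and 4.44, 5.76 and 5.95 CPM in TDCIPP with DOX. All groups overlapped with DMSO, and hsf1 was called in none of the 6 comparisons. HSF1 is controlled largely after translation, so its transcript level does not give its activity. Of the list of 6 other heat shock factor and binding partner genes, 3 were tested and none was called in any comparison; hsf2 in TDCIPP with DOX against TDCIPP had the lowest adjusted p of that list, 0.0819, with a log2 difference of -0.81 ± 0.23.

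Over the 9 members tested, the median log2 fold change lay near or below that of all genes in most comparisons. It was -0.26 in TDCIPP against DMSO, beside 0.02 for all genes, and -0.03 in DOX against DMSO, beside 0.12 for all genes. It was -0.38 in TDCIPP with DOX against DOX beside -0.08 for all genes, 0.26 in TDCIPP with DOX against TDCIPP beside -0.01, and -0.48 in TDCIPP with DOX against DMSO beside 0.10. With TMM 4 of the 9 members had a positive value in DOX against DMSO, and with library totals 8, with a median of 0.63 over the members beside 0.83 over all genes.

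Other chaperone and cochaperone genes were read from 9 lists with 113 genes in the table, 101 of them tested. In DOX against DMSO 12 were higher and 3 lower, 14.9% of those tested, beside 6.86% of all genes. Of the 12, hspb6 and hsp70.2 had few reads in DMSO and TDCIPP. Both passed the low count filter only through the groups with DOX, so that share depends in part on the same rise. Without DOX replicate 1 the counts were 7 higher and 2 lower, without those 4 libraries 6 and 1, and with library totals 53 and 0. Over all genes 1189, 684 and 5033 were called in these settings, and 1315 in the main fit. The total of 15 genes fell to between 1 and 9 when DMSO replicate 1, 2 or 3, TDCIPP replicate 3, DOX replicate 1, or any library of TDCIPP with DOX was left out. In those fits the calls over all genes also fell, to between 209 and 1189. In TDCIPP against DMSO neither edgeR nor DESeq2 called any of the 101, beside 0.0418% and 2.27% of all genes. The HSP40, HSP90 cochaperone, BAG and collagen lists each had 1 gene with an unadjusted edgeR p under 0.05, beside 10% of all genes. edgeR called 2, both lower, in TDCIPP with DOX against DOX, 1.98% of those tested beside 2.1% of all genes. Against TDCIPP, TDCIPP with DOX had 3 higher and 7 lower, 9.9% beside 4.18% of all genes, and 17 and 1 with library totals. Over all genes library totals called 2724 there, and the main fit 801. The total of 10 list genes was 1 to 6 without TDCIPP replicate 2 or 3, DOX replicate 1 or any library of TDCIPP with DOX. In those fits 127 to 721 of all genes were called. Against DMSO, TDCIPP with DOX had 5 higher and 14 lower, 18.8% of those tested, beside 11.7% of all genes. With library totals the counts were 44 and 1, where 7271 of all genes were called, beside 2241 in the main fit. The total of 19 was 10 to 12 without DMSO replicate 1 or 2 or any library of TDCIPP with DOX. In those fits 1017 to 1474 of all genes were called. hspb6 is also among the genes higher in TDCIPP with DOX against TDCIPP and against DMSO, so those shares carry the same limit.

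The counts that follow for DOX against DMSO stand beside 6.86% of all genes, and those for TDCIPP with DOX against DMSO beside 11.7%. The cochaperones of HSP70 that rose in DOX against DMSO were dnajb1b and dnajb12a of the HSP40 family, which hand unfolded proteins to HSP70, 2 of 16 tested. The median of the 16 was 0.99, beside 0.12 for all genes. At an unadjusted edgeR p under 0.05, 9 of the 16 were higher and 0 lower, beside 26.6% of all genes in either direction. dnajb1b measured 2.18, 2.57 and 1.66 CPM in DMSO and 13.5, 3.32 and 12.1 CPM in DOX, and rose by 2.18 ± 0.57 (adjusted p = 0.0443). It was not called without DOX replicate 1 (1.77, adjusted p = 0.0913) or without the 4 libraries (1.84, adjusted p = 0.188), within a leave-one-out range of 0.0313 to 0.154. bag6, a BAG family protein that guards newly made proteins in the cytosol, rose by 1.23 (adjusted p = 0.0158), 1 of 6 tested. Of the HSP90 cochaperones, 2 of 17 rose: ahsa1b, the activator of the HSP90 ATPase, by 1.28 (adjusted p = 0.0344), and unc45a, a myosin chaperone, by 1.48 (adjusted p = 0.0258). Over the leave-one-out fits the adjusted p was 0.0112 to 0.0621 for bag6 and 0.0313 to 0.076 for unc45a, both not called without DMSO replicate 1 or 3. It was 0.0215 to 0.118 for dnajb12a, not called without DMSO replicate 1 or 3, DOX replicate 1 or 2, or TDCIPP with DOX replicate 1 or 2. It was 0.0182 to 0.128 for ahsa1b, called only without DMSO replicate 2, TDCIPP replicate 1 or 2, or DOX replicate 3, and dnajb1b was called only without DOX replicate 2 or TDCIPP with DOX replicate 2. DNAJA4 rose in TDCIPP with DOX against DMSO by 2.85 (adjusted p = 0.0486), bag6 rose by 0.86 (adjusted p = 0.0316) and tsc1a, a cochaperone of HSP90, fell by 0.62 (adjusted p = 0.0411). Their adjusted p reached 0.166, 0.122 and 0.167 in leave-one-out fits. DNAJA4 was called only without a TDCIPP library or DOX replicate 3, bag6 only without a library of TDCIPP or DOX, and tsc1a only without TDCIPP replicate 1, DOX replicate 3 or TDCIPP with DOX replicate 2.

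hspb6, a small heat shock protein best known from muscle, gave 2 reads over the DMSO libraries, 8 over TDCIPP, 38 over DOX and 163 over TDCIPP with DOX. It was called higher in DOX against DMSO (adjusted p = 0.0348), in TDCIPP with DOX against DMSO (adjusted p = 0.00415) and in TDCIPP with DOX against TDCIPP (adjusted p = 0.0205), 1 of 3 small heat shock protein genes tested each time, beside 6.86%, 11.7% and 4.18% of all genes. The list has 10 genes in the table, of which these 3 passed the low count filter. With its few reads in DMSO and TDCIPP, hspb6 passed only through the groups with DOX. The 1 of 3 therefore depends on the same rise and cannot be weighed against those shares. Over the leave-one-out fits the adjusted p of hspb6 was 0.00309 to 0.0231 in TDCIPP with DOX against DMSO. In DOX against DMSO it was 0.038 to 0.104, and hspb6 was called only without TDCIPP replicate 1 or DOX replicate 3. Against TDCIPP it was 0.0124 to 0.0975, and the call was lost without TDCIPP replicate 2 or 3 or any library of TDCIPP with DOX. Its rate per sequenced read in TDCIPP with DOX was 70.9 times that of DMSO by counts alone (exact 95% interval 19.3 to 590), and in DOX 18.9 times (4.89 to 162). The muscle markers were near 0 in all groups, as given above for hsp90aa1.1.

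The subunits of the CCT chaperonin, the ring complex that folds actin and tubulin, were lower, like hsp90ab1, in TDCIPP with DOX. Of 14 genes tested in the list of CCT and its partner prefoldin, 9 fell in TDCIPP with DOX against DMSO and none rose, beside 11.7% of all genes. They were the 8 CCT subunits and pfdn4 of prefoldin (adjusted p = 0.0438, 0.0182 to 0.175 over the leave-one-out fits), the only gene called of the other 6. cct7 was not called without DMSO replicate 2 or any library of TDCIPP with DOX (adjusted p up to 0.0867), and pfdn4 was called only without DOX replicate 2 or 3. cct8 measured 192, 261 and 185 CPM in DMSO, 122, 188 and 164 CPM in TDCIPP, 105, 106 and 71.3 CPM in DOX, and 59, 65.9 and 59 CPM in TDCIPP with DOX, so that no library of TDCIPP with DOX reached any other group. It fell by 1.79 ± 0.23 (adjusted p = 0.002), tcp1 by 1.1 ± 0.16 (adjusted p = 0.00261) and cct6a by 1.17 ± 0.19 (adjusted p = 0.00347). Without the 4 libraries 9 genes were called as well, beside 2306 of all genes. The leave-one-out range was 7 to 11, beside 1017 to 3391 of all genes. Against TDCIPP, 6 fell in TDCIPP with DOX, beside 4.18% of all genes, and in DOX against DMSO 3 fell, namely cct8, tcp1 and cct6a, beside 6.86%. The last count was 0 without DMSO replicate 1, 2 or 3, and 1 without TDCIPP replicate 3, DOX replicate 1 or any library of TDCIPP with DOX. The count of 6 was 0 to 3 without DMSO replicate 1, DOX replicate 1, or any library of TDCIPP or of TDCIPP with DOX. Over all genes the leave-one-out fits called 209 to 1306 in DOX against DMSO and 127 to 1339 in TDCIPP with DOX against TDCIPP. The falls of this list are relative to other genes. With library totals its median in TDCIPP with DOX against DMSO was 0.07, where that of all genes was 1.11. There 2 genes of the list were called higher and 1 lower, beside 7271 of all genes.

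**Figure D5:**
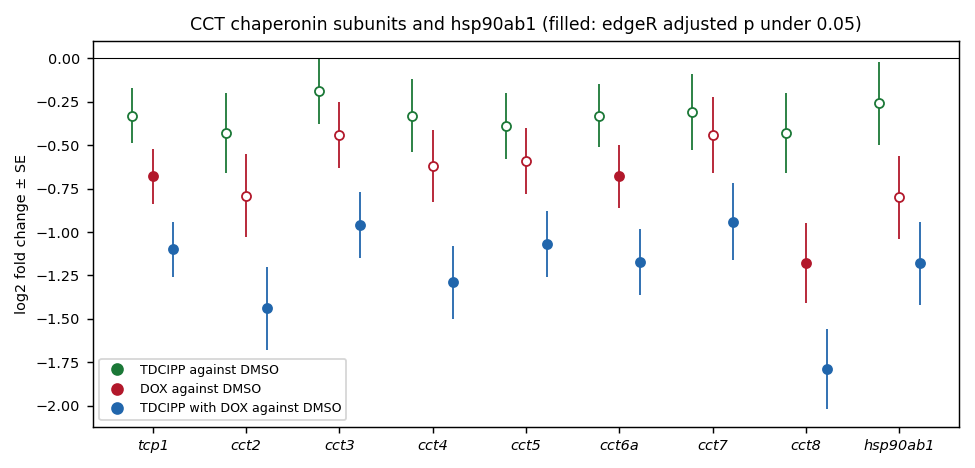
Log2 fold change against DMSO (vertical axis, TMM scaling) with its SE (bars) of the 8 CCT subunits and hsp90ab1, in TDCIPP (green), DOX (red) and TDCIPP with DOX (blue); filled points have an edgeR adjusted p under 0.05. All 9 genes are called in TDCIPP with DOX, from -1.79 for cct8 to values near -1, and none in TDCIPP; with library totals cct3 and cct7 turn to 0.06 and 0.08.

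Around the mitochondrial pair, no mitochondrial chaperone or protease of 14 tested was called in DOX against DMSO, beside 6.86% of all genes. At an unadjusted edgeR p under 0.05, 2 of the 14 were higher and 3 lower, beside 26.6% of all genes in either direction. dnaja3a, a mitochondrial HSP40, measured 31.8, 41.8 and 30.3 CPM in DMSO and 12, 10.1 and 10.5 CPM in TDCIPP with DOX, and fell by 1.67 ± 0.21 (adjusted p = 0.00193), as did dnaja3b by 1.47 (adjusted p = 0.0214) and clpb, a disaggregase, by 1.41 (adjusted p = 0.0496), 3 of 14 beside 11.7% of all genes. dnaja3b was not called without DMSO replicate 2 or TDCIPP with DOX replicate 2 or 3 (adjusted p up to 0.0935), and clpb was called only without DOX replicate 1 or 3 (adjusted p up to 0.171). dnaja3a also fell against DOX by 1.09 (adjusted p = 0.0364, 0.0301 to 0.147 over the leave-one-out fits) and against TDCIPP by 1.27 (adjusted p = 0.0102), a call lost without TDCIPP replicate 2 or TDCIPP with DOX replicate 3 (adjusted p = 0.0554 and 0.0607). The other gene lower in TDCIPP with DOX against DOX was dnajc21, an HSP40 of ribosome assembly, by 2.11 ± 0.37 (adjusted p = 0.0336, 0.0252 to 0.124 over the leave-one-out fits). hspa9, the HSP70 of mitochondria, was named after its values were seen; it measured 178, 236 and 167 CPM in DOX and 116, 127 and 96.7 CPM in TDCIPP with DOX, a difference of -0.77 ± 0.24 that was not called (adjusted p = 0.102).

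Of 11 genes tested for the folding and modification of collagen, the protein on which serpinh1b acts, 3 rose in DOX against DMSO, beside 6.86% of all genes, and the median of the 11 was 0.19 beside 0.12 for all genes. These were plod1a by 1.84 ± 0.25 (adjusted p = 0.00654), p4ha1b by 1.64 ± 0.36 (adjusted p = 0.0283) and p4ha2 by 1.65 ± 0.38 (adjusted p = 0.0297). plod1a, a lysyl hydroxylase, measured 6.44, 7.52 and 6.81 CPM in DMSO, 7.11, 8.36 and 7.56 CPM in TDCIPP, 23.1, 34.3 and 17.3 CPM in DOX and 28.9, 25.7 and 36.1 CPM in TDCIPP with DOX. Its DOX and TDCIPP with DOX libraries all lay above all 6 others, and it was called in every leave-one-out fit, with an adjusted p of 0.00302 to 0.0349 in DOX against DMSO. p4ha1b, a prolyl hydroxylase subunit, had an adjusted p of 0.027 to 0.0982 in those fits, and p4ha2 one of 0.0113 to 0.111. The count of 3 was 1 without DMSO replicate 1, 2 or 3 or DOX replicate 2, where 209 to 782 of all genes were called. plod1a also rose in TDCIPP with DOX against DMSO by 2.12 and p4ha1b by 1.34 (adjusted p = 0.00181 and 0.0358), while p4hb, the disulfide isomerase that joins the prolyl hydroxylases, fell by 0.78 (adjusted p = 0.0182), 2 higher and 1 lower beside 11.7% of all genes, with a list median of 0.4. There p4ha1b and p4hb were not called in every leave-one-out fit (adjusted p up to 0.141 and 0.0901). The summed fibroblast and stellate cell markers were lowest in DOX, as given above.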

How the data were processed

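Liver RNA was sequenced in 12 libraries, 3 per group. Trizol extraction and the NEBNext Ultra RNA kit were used, per the labels' protocols; no strand-specific step is named there, so reads of overlapping genes on both strands cannot be told apart. Reads were aligned with HISAT, per the submitters' processing notes; which version was used, and with which counting program, genome build and annotation, is not given in the sources used here. In the deposited table are raw counts per gene, FPKM values and an adjusted p-value for 4 of the authors' own comparisons, per the file headers. The authors' adjusted p-values are quoted as theirs and never mixed with those computed here. For many genes the length behind the FPKM is shorter than the length the table lists. Headers tied every count column to 1 library and left 0 columns unmatched. Of 8443 unnamed rows, 5571 were named from a reference table of gene identifiers.

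The count model was edgeR 4.0.16 under R 4.3.3: quasi-likelihood tests after TMM scaling and filterByExpr, over all 12 libraries together with 1 mean for each group and without a replicate block, 8 residual degrees of freedom and a common dispersion of 0.297. Tests were two-sided, adjusted over 19160 genes, with a threshold of 0.05. The interaction is the effect of TDCIPP with DOX present less its effect without DOX. The 10 heat shock genes, the 9 lists of other chaperone genes and the 9 lists of cell type markers were chosen with earlier results of these data known, so no list was tested; each is described by counts and medians. The rule for other genes named up to 3 called genes per list and comparison, those with the lowest adjusted p, the lowest of a list with none called, and the 5 genes most like hsp70l; genes named outside it are marked or are shown for a change in a count. Alternatives were DESeq2 size factors, library totals, DESeq2 1.42.0, and fits with no low count filter or with a block per replicate number. Others were fits of only the groups compared and fits without each library in turn. The last left out together the 4 libraries that the report names for their ovary or intestine transcripts. The correlations without DOX replicate 1 and the alternatives for list genes were added after the data were seen. The fits were also run on simulated counts, drawn from the dispersions that edgeR estimated from these libraries. There edgeR stayed within a limit set on false calls and DESeq2 exceeded it. The limit was first required of both tools, and then of edgeR only. Because the counts were drawn from edgeR's own estimates, the simulation cannot rank the tools. Counts by DESeq2 are given only as an alternative.

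The labels give no batch, sex or hour of collection. Intervals on reads cover counting error only. Marker levels not given in full in the report are ranges over the 12 libraries of the sum of a list within a library. They were 75.8 to 3040 CPM for 13 exocrine pancreas markers and 149 to 979 CPM for 9 intestine epithelium markers. For 6 endothelium markers they were 42.4 to 94.9 CPM, and for 7 red blood cell markers 71.2 to 954 CPM. For 8 leukocyte markers they were 43.9 to 246 CPM. None of these markers was at 0 in a group. No sequences were available to print.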

Additional observations from a re-analysis of the deposited data

How the results depend on the processing

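The number of heat shock genes called depended on the setting. In TDCIPP against DMSO it was 0 and became 1 with DESeq2; in DOX against DMSO it was 1 and became 3 with library totals, 3 with DESeq2, 0 with only the groups compared and 0 to 2 over the leave-one-out fits. In TDCIPP with DOX against DOX it was 0 and became 1 with DESeq2 and 0 to 1 over the leave-one-out fits. In TDCIPP with DOX against TDCIPP it was 1 and became 2 with library totals, 2 with DESeq2, 3 with only the groups compared and 0 to 2 over the leave-one-out fits. In TDCIPP with DOX against DMSO it was 2 and became 4 with library totals, 3 with DESeq2 and 1 to 2 over the leave-one-out fits. For the interaction it was 0 and became 1 with DESeq2, and only the groups compared was not run because it needs all libraries. The causes were not tested, except that library totals remove the TMM scaling. Over all genes, edgeR and DESeq2 called 8 and 419, 1315 and 2715, 403 and 2176, 801 and 1677, 2241 and 3496, and 5 and 286 genes, in the order TDCIPP against DMSO, DOX against DMSO, TDCIPP with DOX against DOX, against TDCIPP and against DMSO, and the interaction. In the same order library totals called 6, 5033, 142, 2724, 7271 and 4 of all genes. Fits of only the groups compared called 11, 97, 0, 1092 and 3084, without the interaction. The leave-one-out fits called 0 to 20, 209 to 1306, 0 to 476, 127 to 1339, 1017 to 3391 and 0 to 10. The number of heat shock genes called is to be read beside these counts.

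Of 1017 values of single heat shock genes under an alternative, 936 had the same direction and side of the threshold, 47 reversed, 21 passed it and 13 no longer did. With library totals the log2 fold change reversed for hsp90ab1 to 0.1 and hsf1 to 0.22 in TDCIPP against DMSO; for bag3 to 0.63, hspb1 to 0.08, hspe1 to 0.58, hsf1 to 0.37 and tcp1 to 0.01 in DOX against DMSO; and for hsp90aa1.2 to 0.04 and hsf1 to 0.17 in TDCIPP with DOX against DOX. It reversed for hspd1 to 0.56, hspe1 to 0.33 and hsf1 to 0.32 in TDCIPP with DOX against TDCIPP, and against DMSO for hspb1 to 0.53, hspd1 to 0.48, hspe1 to 0.32, hsf1 to 0.54, cct7 to 0.08, cct3 to 0.06, tsc1a to 0.39, pfdn4 to 0.23 and p4hb to 0.24. For the interaction hsf1 reversed to -0.04. The library totals medians of all genes were 0.39, 0.83, 0.23, 0.64 and 1.11 in these comparisons. Without the 4 libraries hsf1 reversed to 0.07 in TDCIPP against DMSO and to -0.09 for the interaction, bag3 to 0.32 in DOX against DMSO and serpinh1b to -0.21 in TDCIPP with DOX against TDCIPP.

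Leave-one-out fits crossed 0 in TDCIPP against DMSO for hspd1 (-0.76 to 0.24), hspe1 (-0.6 to 0.01) and hsf1 (-0.34 to 0.04), and in DOX against DMSO for bag3 (-0.43 to 0.32), hspe1 (-0.35 to 0.32) and serpinh1b (-0.14 to 1.83). In TDCIPP with DOX against DOX they did so for hsp70l (-1.89 to 1.42) and hsp90aa1.2 (-0.87 to 1.53), each positive only without DOX replicate 1, and for hsf1 (-0.18 to 0.04). In TDCIPP with DOX against TDCIPP they did so for hspd1 (-0.18 to 0.12) and serpinh1b (-0.12 to 0.5), and against DMSO for hspd1 (-0.84 to 0.17). For the interaction they did so for hsp70l (-3.42 to 0.62), hsp90ab1 (-0.33 to 0.15), hspe1 (-0.63 to 0.04), hsf1 (-0.12 to 0.26) and serpinh1b (-1.57 to 0.4).

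Replicate numbers showed no visible pairing of the libraries. Deviations from the group means correlated between -0.225 and 0.182 (median 0.01) for libraries of the same number, with 2 of 18 pairs over 0.1. For other numbers they correlated between -0.229 and 0.242 (median -0.008), with 6 of 36 pairs over 0.1. Among libraries of other groups, 3 of 12 libraries were closest to their own number. With 3 libraries per group, these values cannot tell whether a number marks a shared batch or collection. With a block per replicate number the count of heat shock genes called was 0, 1, 0, 1, 2 and 0 in the order above. Over all genes that block called 13, 986, 256, 727, 2060 and 3. In TDCIPP with DOX against DOX hsp70l then reversed to 0.1 and hsp90aa1.2 to 0.3. Low reads limit hsp70l, hsp90aa1.1, the hsp70 copies, hspb6 and serpinh1b.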
